A study of Homo sapiens with 6 samples.

Results

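Mesenchymal and extracellular matrix genes were followed as a list of 40 symbols among the 36601 genes measured. The list was chosen for function and holds transcription factors of the mesenchymal state, YAP and TAZ with their targets, collagens, basement membrane proteins, matrix glycoproteins, cell surface receptors, cytoskeletal proteins and the galectin, annexin and S100 proteins that go with them. All 40 were found by symbol, and 39 had enough unique molecular identifiers (UMIs, each of which stands for 1 captured RNA molecule) to be tested. The exception was PRRX1, a homeobox factor of the mesenchymal neuroblastoma state, with at most 8 UMIs in any library.

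Single cells of SK-N-BE(2)-C, a cell line from a human neuroblastoma, were profiled with Seq-Well S3, in which cells and barcoded beads are paired in microwells. Cells had been given DMSO, the solvent control, or TSA (trichostatin A by its usual abbreviation, a compound that blocks the catalytic site of histone deacetylases), or E6R, which the labels name by this code alone. The series title speaks of an inhibitor that acts on histone deacetylase complexes by a non-enzymatic route. Each group had 2 libraries, numbered replicate 1 and replicate 2, and all 3 groups share the same line, so the results are those of 1 line. Doses and exposure times are not given in the sources used here, and neither is whether the replicates were separate cultures, so p-values measure only the spread between these libraries, which may be technical.

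Neuroblastoma cells occupy an adrenergic state, with catecholamine enzymes, or a mesenchymal state, with vimentin, fibronectin, collagens, PRRX1 and high YAP and TAZ activity, and cells of a line can move between them. Extracellular matrix proteins are secreted, assembled outside the cell and bound by integrins and CD44, and stretch and adhesion feed back on YAP and TAZ, which with TEAD factors turn on CCN1 and CCN2. SNAI2, TWIST1, ZEB1 and ZEB2 bind DNA and repress epithelial genes during epithelial to mesenchymal transition.

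After cells with at least 500 genes and at most 20% mitochondrial UMIs were kept, the libraries held 1861 to 3946 cells and 4206366 to 26180262 UMIs. Median UMIs per cell ran from 1053.5 to 1880.0, and the members took 0.417% to 0.777% of the UMIs. Adrenergic markers were present in every library, 12 of 12 above 0, with a summed level of 3382 to 5936 CPM (UMI counts of a gene scaled to a common library size, here by edgeR's TMM). Immune markers were under 5 CPM in all libraries for 7 of 7 genes, and Schwann cell markers for 5 of 7. Between any 2 libraries 11 to 58 cell barcodes were shared. Replicates of a treatment differed by far more than counting error, with a chi-square per degree of freedom of 19.7 under DMSO, 41.5 under TSA and 79.3 under E6R. Below, the replicate 1 value of a treatment stands before the replicate 2 value, and levels are not ranked between genes.

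**Figure D1:**
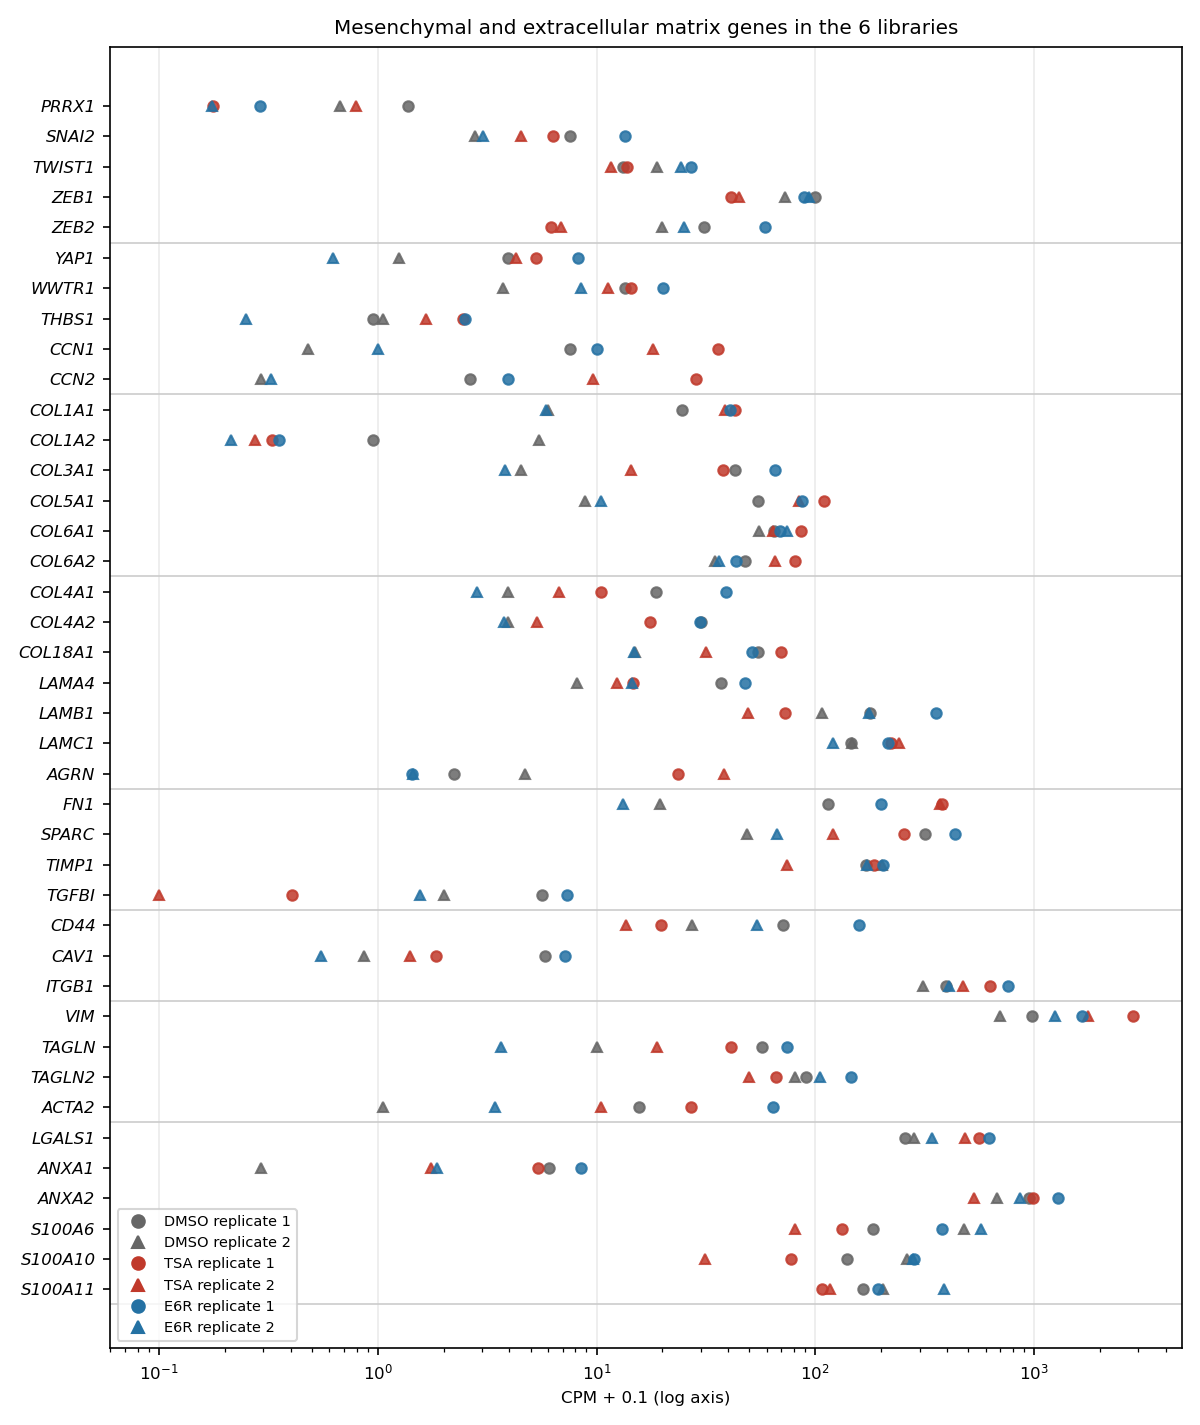
CPM plus 0.1 (log axis) of the 40 genes in the 6 libraries, grouped by role, with colour for treatment and shape for replicate. AGRN stands apart under TSA, ZEB1 and ZEB2 are lowest under TSA, and circles (replicate 1) lie to the right of triangles of their colour for most matrix genes.

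Under TSA members were called in both directions, as were genes at large. The basement membrane proteoglycan AGRN, the intermediate filament gene VIM, the galectin LGALS1 and the collagen VI chain COL6A2 rose against DMSO, while the transcription factors ZEB1 and ZEB2, the S100 proteins S100A6 and S100A10, the laminin chain LAMB1 and the low-level genes TGFBI and COL1A2 fell. These 4 higher and 7 lower calls of 39 tested (28.2%) came from edgeR's quasi-likelihood test at a Benjamini-Hochberg adjusted p under 0.05, and the same test called 29.7% of all 16763 genes, 16.2% higher and 13.5% lower. In this fit the share of members called was thus near that of all genes. The median log2 fold change of the tested members was 0.09 beside -0.01 for all genes. Libraries of the groups did not overlap for 13 members higher and 10 lower under TSA (59.0%), against 71.3% of all genes, 36.7% higher and 34.6% lower. At an unadjusted p under 0.05, 6 members were higher and 9 lower (38.5%), against 42.6% of all genes, 22.5% higher and 20.1% lower. Without scaling for composition the median of all genes moved to -0.32, the calls to 2 higher and 10 lower members, and the share of all calls that were higher from 54.7% to 33.8%.

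This count moved with each library. Dropping DMSO replicate 1 left 6 member calls, beside 14% of all genes, and dropping DMSO replicate 2 left 4, beside 15%. Dropping TSA replicate 1 left 3, beside 9.84%, and dropping TSA replicate 2 left 2, beside 7.79%. Dropping E6R replicate 1 gave 18, beside 33% of all genes, and dropping E6R replicate 2 gave 19, beside 33.6%. The E6R libraries are in neither group of this comparison but enter the estimate of spread and the low-count filter, and the cause was not tested.

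E6R gave no member called against DMSO, and none of the 16763 genes was called (0%). At an unadjusted p under 0.05, 5 members were higher and 2 lower (17.9% of 39), against 17.4% of all genes, 8.04% higher and 9.34% lower, and DESeq2 called 0 members and 431 genes in all (3.09%). Fitted values were above DMSO for 34 of the 39, with a median log2 fold change of 0.54 beside 0.03 for all genes. That median turned to -0.67 without E6R replicate 1 and was 1.16 without E6R replicate 2, 1.32 without DMSO replicate 1 and 0.15 without DMSO replicate 2, so its sign and size hung on which library was in the fit. Libraries did not overlap for 7 members higher and 2 lower (23.1%), against 47.3% of all genes, 24.6% higher and 22.7% lower.

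Between the treatments, E6R was above TSA for 10 members, which were TWIST1, ZEB1, ZEB2, CD44, LAMB1, TAGLN2, S100A6, S100A10, S100A11 and TGFBI, and below it for AGRN and COL6A2. These 12 of 39 (30.8%) stand beside 38.2% of all genes called, 18.7% higher and 19.5% lower. At an unadjusted p under 0.05 there were 10 higher and 3 lower, beside 48.5% of all genes, 23.6% higher and 24.9% lower. Libraries did not overlap for 43.6% of the members, beside 72.6% of all genes, 33.7% higher and 38.9% lower. The median log2 fold change was 0.42, beside -0.09 for all genes. Without TSA replicate 2 the count was 4, beside 14.4% of all genes, and without E6R replicate 1 it was 21 (10 higher, 11 lower), beside 33%. The mitochondrial share of UMIs also split by treatment, at 1.55% and 1.51% under E6R, 6.08% and 9.71% under TSA, and 5.83% and 6.2% under DMSO, and the top 1% of cells held 22.5% of the UMIs of E6R replicate 2 against 8.77% to 15.6% elsewhere. Their part in the calls was not tested. The 3 comparisons share libraries in pairs, so their calls are given side by side and not as support for each other, and whether dose or time was matched between TSA and E6R is not given in the sources used here.

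**Figure D2:**
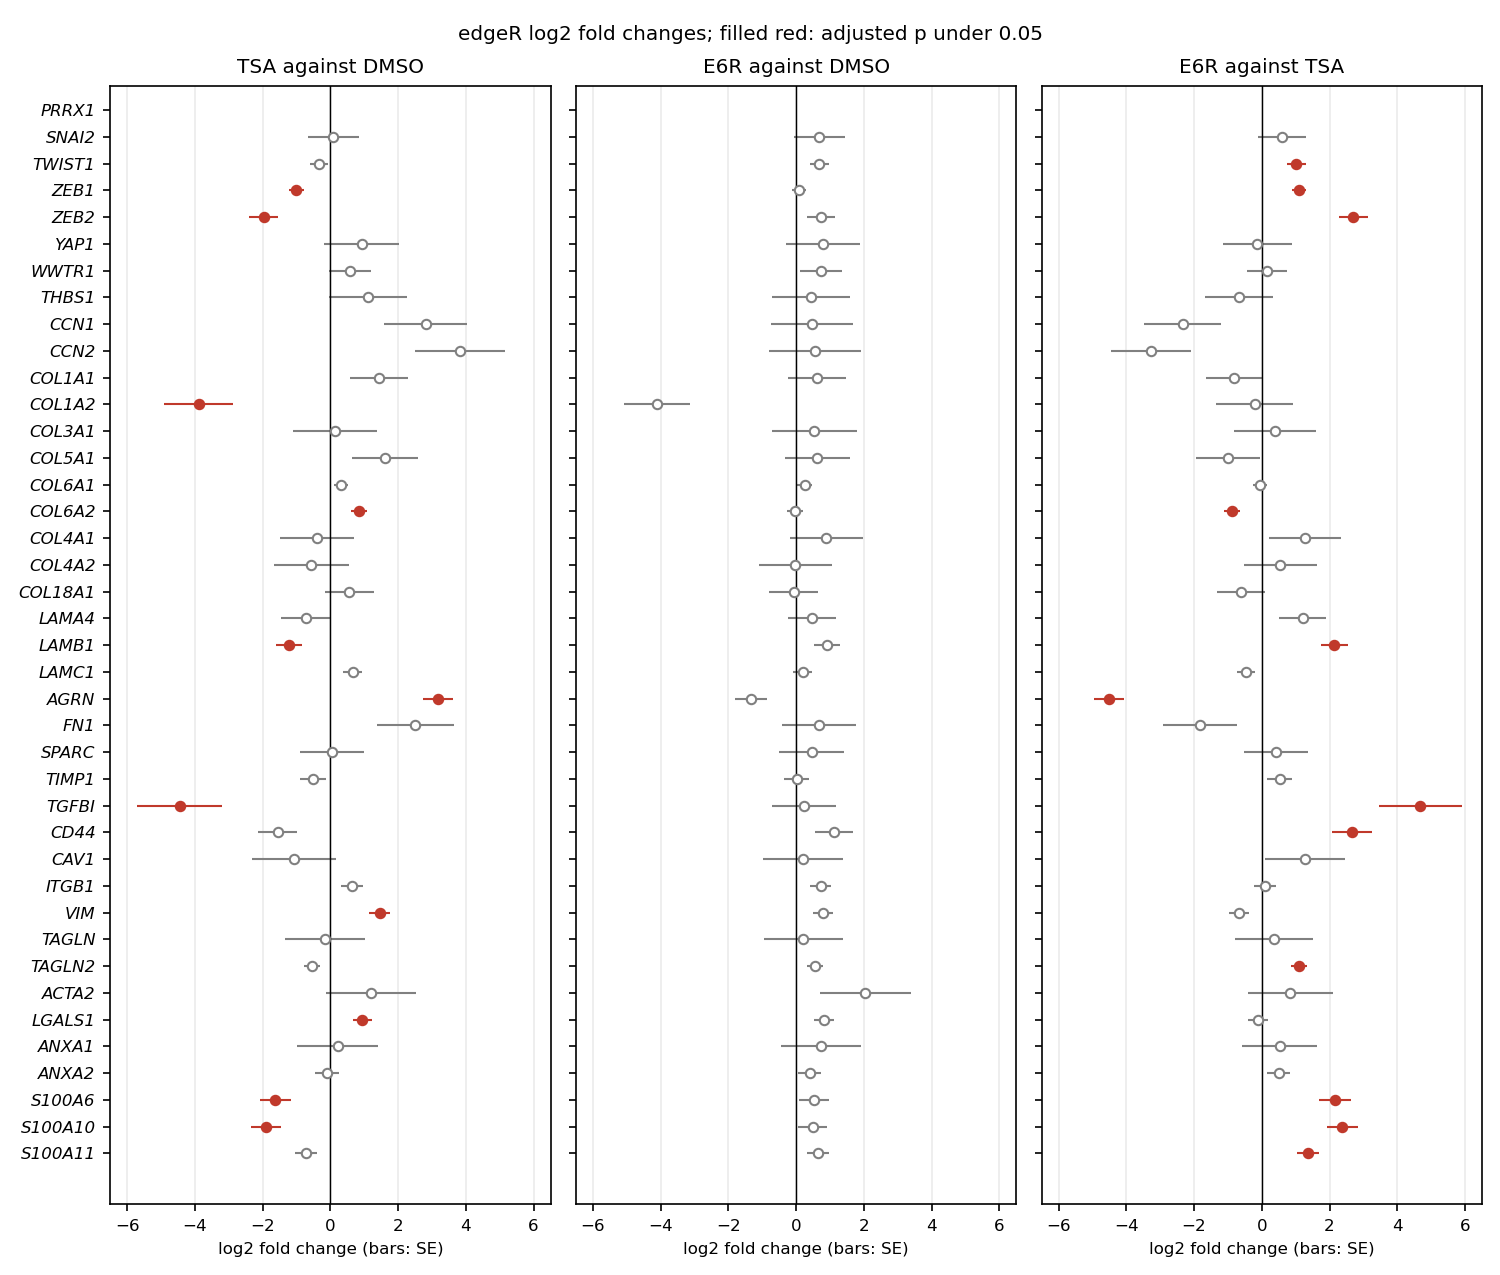
Log2 fold changes from edgeR with their standard errors for the 39 tested members in the 3 comparisons, filled red where the adjusted p was under 0.05. TSA has 4 filled points to the right and 7 to the left of 0, E6R against DMSO has none, and E6R against TSA has 10 to the right and 2 to the left.

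Promoters of the called members were examined next, to show the DNA at which genes that rose and genes that fell under TSA start. Of the 40 members, 30 had an entry in the RefSeq promoter table (build GRCh38.p14). Shown 5′ to 3′ on the gene's strand are the 250 bases before the RefSeq start of VIM (chr10:17227991-17228240, plus strand) and COL6A2 (chr21:46097862-46098111, plus strand), which rose, and of ZEB2 (chr2:144520120-144520369, minus strand) and S100A10 (chr1:151993860-151994109, minus strand), which fell. Capitals mark GC boxes, GGGCGG on either strand.
VIM: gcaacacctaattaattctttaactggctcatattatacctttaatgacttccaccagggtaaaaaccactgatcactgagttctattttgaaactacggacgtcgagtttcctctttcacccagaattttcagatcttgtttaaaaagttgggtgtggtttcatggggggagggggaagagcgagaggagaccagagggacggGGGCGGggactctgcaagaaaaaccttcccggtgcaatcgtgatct
COL6A2: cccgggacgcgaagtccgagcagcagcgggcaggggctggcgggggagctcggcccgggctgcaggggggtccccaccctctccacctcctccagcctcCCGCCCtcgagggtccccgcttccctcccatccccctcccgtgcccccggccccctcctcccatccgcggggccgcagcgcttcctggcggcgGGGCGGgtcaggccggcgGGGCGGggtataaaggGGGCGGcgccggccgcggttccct
ZEB2: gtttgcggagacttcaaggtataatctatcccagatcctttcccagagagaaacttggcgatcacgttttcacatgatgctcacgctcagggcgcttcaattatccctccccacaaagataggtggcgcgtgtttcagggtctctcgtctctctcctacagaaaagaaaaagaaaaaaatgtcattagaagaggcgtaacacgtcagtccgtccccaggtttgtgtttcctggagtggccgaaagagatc
S100A10: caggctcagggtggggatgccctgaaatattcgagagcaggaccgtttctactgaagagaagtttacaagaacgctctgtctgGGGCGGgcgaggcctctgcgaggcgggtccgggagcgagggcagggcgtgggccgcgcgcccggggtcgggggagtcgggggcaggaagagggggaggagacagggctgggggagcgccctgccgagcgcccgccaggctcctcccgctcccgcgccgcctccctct

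The COL6A2 window held 4 GC boxes and was 79.6% G or C, and that of S100A10 held 1 at 71.2%. The VIM window held 1 at 46.0%, and the ZEB2 window held 0 at 48.0%, so neither direction went with GC content among these 4. In the annotation of the gene coordinates below (GENCODE 29), the ZEB2 and S100A10 windows lie inside the gene, since other transcripts start further upstream. For the motif shares that follow, each window held the 250 bases before and the 50 bases after the start, while GC content is of the 250 before. Over the 30 members a GC box was found in 24 windows (80.0%), against 44.6% of 27305 promoters searched the same way on both strands. The median GC content was 67.2% against 58.0%. GGAATG, the core bound by TEAD, was found in 6 (20%, against 14.1%), in the windows of YAP1, ZEB1, SPARC, THBS1, CCN2 and ITGB1. CAGGTG, the E-box bound by ZEB and SNAI proteins, was found in that of ZEB1 alone (3.33%, against 20.6%). The AP-1 site, TGACTCA or TGAGTCA, was found in those of TAGLN2 and ANXA2 (6.67%, against 4.92%), and the CArG box of serum response factor in 0 (against 1.29%). The motifs do not overlap in letters, and a match is only a match of letters.

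Of the transcription factors, ZEB1 and ZEB2, zinc finger repressors of E-cadherin, fell under TSA. ZEB2 (chromosome 2, 144364364 to 144524583, minus strand) stood at 30.8 and 19.9 CPM under DMSO, 6.08 and 6.79 under TSA, and 58.8 and 25.1 under E6R. Both TSA libraries lay under all others, and E6R replicate 1 was the highest. The log2 fold change was -1.98 (SE 0.44, edgeR adjusted p = 0.0132) for TSA against DMSO and 2.7 (SE 0.44, adjusted p = 0.0028) for E6R against TSA. In library sums, fewer cells with a transcript and less RNA per cell cannot be told apart.

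ZEB1 (chromosome 10, 31318495 to 31529814, plus strand) was at 99.8 and 72.3 CPM under DMSO, 41.0 and 44.6 under TSA, and 88.8 and 93.2 under E6R. TSA was again below every other library, and the E6R libraries lay between those of DMSO. TSA gave a log2 fold change of -1.01 (SE 0.21, edgeR adjusted p = 0.0116) and E6R one of 0.08 (SE 0.21, adjusted p = 0.869) against DMSO, the latter turning to -0.06 without scaling for composition. Both genes overlap antisense transcripts (ZEB1-AS1, ZEB2-AS1), and the counting rule for strand is not given in the sources used here. Without DMSO replicate 1, TSA replicate 1 or TSA replicate 2, each of ZEB1 and ZEB2 lost its call under TSA, with adjusted p from 0.0829 to 0.102.

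TWIST1, a basic helix-loop-helix factor, was at 13.2 and 18.7 CPM under DMSO, 13.7 and 11.6 under TSA, and 27.0 and 24.3 under E6R. Its E6R libraries were above the other 4, and it was called only for E6R against TSA (log2 fold change 1.02, edgeR adjusted p = 0.0202), with 0.68 (adjusted p = 0.264) against DMSO. SNAI2, the SLUG repressor of the neural crest, was at 7.44 and 2.68 CPM under DMSO, 6.23 and 4.44 under TSA, and 13.3 and 2.94 under E6R, where the replicates of a group spanned those of the others. PRRX1 ran from 0.0753 to 1.28 CPM over the libraries.

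YAP1 and WWTR1 (TAZ), the coactivators at the end of the Hippo pathway, and their secreted targets were not called in any comparison of the main fit. YAP1 was at 3.82 and 1.15 CPM under DMSO, 5.17 and 4.18 under TSA, and 8.15 and 0.527 under E6R, so E6R held both the highest and the lowest library. Its log2 fold change was 0.92 (SE 1.11, edgeR adjusted p = 0.554) for TSA and 0.79 (SE 1.10, adjusted p = 0.746) for E6R against DMSO. WWTR1 was at 13.4 and 3.63 CPM under DMSO, 14.2 and 11.2 under TSA, and 20 and 8.39 under E6R.

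CCN2, the connective tissue growth factor gene, was at 2.55 and 0.191 CPM under DMSO, 28.3 and 9.49 under TSA, and 3.85 and 0.226 under E6R. CCN1 (CYR61) was at 7.44 and 0.382 CPM under DMSO, 35.9 and 18.1 under TSA, and 9.98 and 0.903 under E6R. Both TSA libraries lay above the other 4 for each gene, yet the replicates of DMSO differed 13.3-fold for CCN2 and 19.4-fold for CCN1. The log2 fold changes were 3.81 (SE 1.33, edgeR adjusted p = 0.0633) and 2.81 (SE 1.22, adjusted p = 0.118). THBS1, thrombospondin 1, stayed under 5 CPM in every library, from 0.151 to 2.40.

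Among the fibrillar and beaded-filament collagens, COL6A2, a chain of the microfibril collagen VI, rose under TSA. COL6A2 (chromosome 21, 46098097 to 46132849, plus strand) was at 47.4 and 34.6 CPM under DMSO, 81.0 and 65.5 under TSA, and 43.5 and 36.3 under E6R. The E6R libraries lay between the DMSO libraries and both TSA libraries above them, with a log2 fold change of 0.84 (SE 0.24, edgeR adjusted p = 0.0337) for TSA against DMSO and -0.88 (adjusted p = 0.0212) for E6R against TSA. The first call was lost in 7 of 18 alternatives. These were no scaling for composition (0.53, adjusted p = 0.149), no mitochondrial or ribosomal protein genes (0.75, adjusted p = 0.0518), cells thinned to 1000 UMIs (0.83, adjusted p = 0.0656) and library sums thinned to the smallest (0.72, adjusted p = 0.0536). The others were the fits without DMSO replicate 2, TSA replicate 1 or TSA replicate 2. Its neighbour COL6A1, 93046 bases upstream on the same strand, was at 64.6 and 55.5 CPM under DMSO, 85.5 and 63.7 under TSA, and 68.9 and 74.0 under E6R, with overlapping groups. Its log2 fold change under TSA was 0.32 (SE 0.21, adjusted p = 0.293), and the difference between the 2 chains was not tested.

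COL1A1, the alpha 1 chain of collagen I, was at 24.4 and 5.93 CPM under DMSO, 42.9 and 38.6 under TSA, and 40.4 and 5.79 under E6R. Its partner chain COL1A2 had 4 and 28 UMIs under DMSO, 3 and 2 under TSA, and 4 and 3 under E6R, with most of its UMIs in DMSO replicate 2. COL1A1 had a log2 fold change of 1.43 (SE 0.86, edgeR adjusted p = 0.241) for TSA and 0.61 (SE 0.86, adjusted p = 0.752) for E6R against DMSO. The TSA value became a call when either E6R library was left out (1.46 without E6R replicate 1, 1.45 without E6R replicate 2) and with no low-count filter (1.34). COL1A2 was called lower under TSA (adjusted p = 0.0244), and for E6R its log2 fold change was -4.10 (SE 0.98, adjusted p = 0.205), the smallest p of the members. Over the alternatives the E6R value ran from -4.75 to -2.20.

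COL3A1, the fibrillar collagen of soft tissue, was at 42.9 and 4.40 CPM under DMSO, 37.8 and 14.3 under TSA, and 65.2 and 3.73 under E6R. COL5A1, which starts fibril formation, was at 54.4 and 8.80 CPM under DMSO, 109 and 84.5 under TSA, and 86.8 and 10.4 under E6R. For both, replicate 1 was the higher library of each treatment. COL5A1 had both TSA libraries above the DMSO pair, with a log2 fold change of 1.62 (SE 0.98, edgeR adjusted p = 0.239).

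In the basement membrane group AGRN had the smallest p of the list under TSA and LAMB1 moved the other way. AGRN (agrin, the heparan sulfate proteoglycan that clusters acetylcholine receptors at the nerve-muscle junction, on chromosome 1 from 1020123 to 1056118, plus strand) had 10 and 24 UMIs under DMSO, 310 and 437 under TSA, and 21 and 36 under E6R. These correspond to 2.12 and 4.59 CPM, 23.5 and 38.1 CPM, and 1.33 and 1.35 CPM. Both TSA libraries stood above all others and both E6R libraries below both DMSO libraries. The log2 fold change was 3.18 (SE 0.45, edgeR adjusted p = 0.00262) for TSA and -1.33 (SE 0.46, adjusted p = 0.228) for E6R against DMSO, and -4.51 (SE 0.45, adjusted p = 0.000533) for E6R against TSA. AGRN kept its calls for TSA against DMSO and E6R against TSA in 18 of 18 alternative analyses each. For E6R against DMSO its value turned to 0.21 (adjusted p = 0.948) with cells thinned to 1000 UMIs.

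LAMB1, the laminin beta 1 chain (chromosome 7, 107923799 to 108003255, minus strand), was at 177 and 107 CPM under DMSO, 72.4 and 49.2 under TSA, and 357 and 176 under E6R. TSA lay below and E6R replicate 1 above all other libraries. TSA gave -1.23 (SE 0.39, edgeR adjusted p = 0.0476), E6R 0.91 (SE 0.39, adjusted p = 0.281) and E6R against TSA 2.13 (SE 0.40, adjusted p = 0.00491) on the log2 scale. The TSA call was lost in 7 of 18 alternatives, among them each of the 4 fits without a DMSO or TSA library, and the gene overlaps DLD on the other strand. LAMC1, the gamma 1 chain of the same trimers, was at 146 and 147 CPM under DMSO, 221 and 240.0 under TSA, and 215 and 121 under E6R. Its TSA value was thus above DMSO where that of LAMB1 was below (log2 fold change 0.65, SE 0.28, adjusted p = 0.109), without a call. LAMA4, an alpha chain of vessel walls, was at 37.0 and 8.03 CPM under DMSO, 14.6 and 12.4 under TSA, and 47.8 and 14.5 under E6R.

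COL4A1 and COL4A2, the sheet-forming collagen IV chains, start from a shared region of chromosome 13 on opposite strands, and their annotated ends overlap. COL4A1 was at 18.7 and 3.83 CPM under DMSO, 10.4 and 6.62 under TSA, and 39.0 and 2.75 under E6R. COL4A2 was at 30.0 and 3.83 CPM under DMSO, 17.5 and 5.22 under TSA, and 29.7 and 3.69 under E6R. Both were higher in replicate 1 of every treatment, and groups overlapped throughout. For TSA against DMSO the log2 fold changes were -0.39 (SE 1.09, edgeR adjusted p = 0.807) and -0.56 (SE 1.10, adjusted p = 0.723), and for E6R 0.89 (SE 1.08, adjusted p = 0.702) and -0.02 (SE 1.09, adjusted p = 0.997). COL18A1, the source of endostatin, was at 54.6 and 14.9 CPM under DMSO, 69.9 and 31.7 under TSA, and 51.4 and 14.8 under E6R.

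FN1, fibronectin, the adhesive glycoprotein that integrins assemble into fibrils (chromosome 2, 215360440 to 215436172, minus strand), was at 114 and 19.3 CPM under DMSO, 380 and 373 under TSA, and 200 and 13.1 under E6R. The TSA libraries agreed closely and lay above the other 4, while those of DMSO and E6R each spanned a wide range. The log2 fold change was 2.50 (SE 1.13, edgeR adjusted p = 0.131) for TSA and 0.68 (SE 1.08, adjusted p = 0.78) for E6R against DMSO, neither called. It became a call for TSA when either E6R library was left out (2.53, adjusted p = 0.00912 without E6R replicate 1; 2.52, adjusted p = 0.00872 without E6R replicate 2). For E6R it ran from -2.25 to 2.61 over the fits that left out 1 library.

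SPARC, osteonectin, a collagen-binding matricellular protein, was at 316 and 48.4 CPM under DMSO, 255 and 120 under TSA, and 434 and 66.8 under E6R. TIMP1, an inhibitor of matrix metalloproteinases, was at 170 and 201 CPM under DMSO, 186 and 74.4 under TSA, and 203 and 171 under E6R. Groups overlapped for SPARC, with replicate 1 above replicate 2 in each treatment, and for TIMP1. TGFBI, a TGF-beta-induced adhesion protein, had 26 and 10 UMIs under DMSO, 4 and 0 under TSA, and 115 and 39 under E6R, and was called lower under TSA than under DMSO (edgeR adjusted p = 0.0313) and E6R (adjusted p = 0.0185).

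Of the surface genes, CD44, the hyaluronan receptor, was at 70.8 and 27.2 CPM under DMSO, 19.6 and 13.5 under TSA, and 158 and 54.1 under E6R. TSA was the lowest group with no overlap, and the DMSO and E6R libraries overlapped. TSA gave a log2 fold change of -1.56 (SE 0.58, edgeR adjusted p = 0.0768) against DMSO, not called. It became a call with total counts only (-1.87, adjusted p = 0.0432) and with no low-count filter (-1.64). The same held when either E6R library was left out (-1.53 without E6R replicate 1, -1.54 without E6R replicate 2). E6R against TSA gave 2.68 (SE 0.59, adjusted p = 0.00965), a call that was lost without TSA replicate 1 (2.98) or TSA replicate 2 (2.44).

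ITGB1, the beta 1 chain of collagen, laminin and fibronectin receptors, was at 396 and 311 CPM under DMSO, 625 and 473 under TSA, and 760.2 and 408 under E6R. Every treated library was above both DMSO libraries, without a call (log2 fold change 0.64, SE 0.32, edgeR adjusted p = 0.165 for TSA, and 0.73, SE 0.32, adjusted p = 0.292 for E6R). CAV1, the coat protein of caveolae, was at 5.74 and 0.765 CPM under DMSO, 1.75 and 1.31 under TSA, and 7.08 and 0.451 under E6R.

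VIM, vimentin, the intermediate filament of mesenchymal cells (chromosome 10, 17228259 to 17237593, plus strand), rose under TSA. It was at 977 and 696 CPM under DMSO, 2840.0 and 1760.0 under TSA, and 1652 and 1242 under E6R. The 3 groups did not overlap, with DMSO lowest and TSA highest. The log2 fold change was 1.46 (SE 0.31, edgeR adjusted p = 0.0113) for TSA and 0.79 (SE 0.30, adjusted p = 0.247) for E6R against DMSO, and -0.67 (SE 0.30, adjusted p = 0.117) for E6R against TSA. The TSA call was lost without DMSO replicate 2 (adjusted p = 0.0854) or TSA replicate 1 (adjusted p = 0.0786), and VIM overlaps VIM-AS1 on the other strand.

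TAGLN2, a widely expressed transgelin that bundles actin, was at 90.5 and 80.3 CPM under DMSO, 66.3 and 49.9 under TSA, and 146 and 105 under E6R. Its groups were apart in the order TSA, DMSO, E6R, with a call for E6R against TSA only (log2 fold change 1.11, SE 0.24, edgeR adjusted p = 0.00877). The smooth muscle genes TAGLN and ACTA2 instead separated by replicate. ACTA2, smooth muscle actin, was at 15.5 and 0.956 CPM under DMSO, 27.0 and 10.4 under TSA, and 64.3 and 3.35 under E6R. TAGLN was at 56.7 and 9.95 CPM under DMSO, 40.9 and 18.7 under TSA, and 73.9 and 3.57 under E6R. A single cell of TSA replicate 1 held 81 of its ACTA2 UMIs, and a single cell of E6R replicate 1 held 159 of its TAGLN UMIs.

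S100A6 and S100A10, small calcium-binding-family proteins of chromosome 1q21, fell under TSA. S100A10, the partner of annexin A2 (151982915 to 151994390, minus strand), was at 139 and 263 CPM under DMSO, 77.0 and 31.1 under TSA, and 284 and 279 under E6R. The log2 fold change was -1.90 (SE 0.45, edgeR adjusted p = 0.0165) for TSA against DMSO and 2.38 (SE 0.45, adjusted p = 0.00525) for E6R against TSA. TSA lay below and E6R above both DMSO libraries. The TSA call was lost without DMSO replicate 2 (adjusted p = 0.0857) or TSA replicate 2 (adjusted p = 0.0927), while that of E6R against TSA held in 18 of 18 alternatives.

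S100A6, calcyclin, was at 183 and 477 CPM under DMSO, 132 and 80.7 under TSA, and 380 and 573 under E6R. TSA was lowest, and DMSO replicate 1 lay nearer to TSA than to its own replicate. TSA gave -1.63 (SE 0.46, edgeR adjusted p = 0.0321) against DMSO and E6R gave 2.16 (SE 0.47, adjusted p = 0.0089) against TSA on the log2 scale. The former lost its call without DMSO replicate 2 (-0.85, adjusted p = 0.162), TSA replicate 1 (adjusted p = 0.082) or TSA replicate 2 (adjusted p = 0.206), and the latter without TSA replicate 2 (adjusted p = 0.0839). S100A11, 38115 bases from S100A10, was at 166 and 203 CPM under DMSO, 107 and 117 under TSA, and 193 and 386 under E6R, and was called for E6R against TSA only (log2 fold change 1.37, adjusted p = 0.012). For all 3 S100 genes TSA was the lowest group without overlap.

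LGALS1, galectin 1, a secreted lectin of the matrix, went up under TSA while these S100 genes went down. It was at 258 and 283 CPM under DMSO, 559 and 484 under TSA, and 620.3 and 341 under E6R, so all treated libraries exceeded both controls. The log2 fold change was 0.95 (SE 0.29, edgeR adjusted p = 0.0422) for TSA and 0.83 (SE 0.29, adjusted p = 0.228) for E6R. The TSA call was lost in 10 of 18 alternatives, with 0.64 (adjusted p = 0.13) without scaling for composition and without each DMSO and TSA library. ANXA2, annexin A2, was at 947 and 677 CPM under DMSO, 988 and 529 under TSA, and 1280.0 and 865 under E6R, with overlap throughout. ANXA1, a phospholipid-binding annexin, was at 5.95 and 0.191 CPM under DMSO, 5.32 and 1.65 under TSA, and 8.40 and 1.77 under E6R.

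These genes also divided between replicate numbers. Of the 39 tested members, 20 were at least 2-fold higher in replicate 1 than in replicate 2 under DMSO (51.3%), 24 under E6R (61.5%) and 11 under TSA (28.2%). The same held for 9.30%, 8.09% and 3.94% of all genes. In the other direction it was 3 members under DMSO, 0 under TSA and 0 under E6R, beside 11.2%, 5.89% and 14.0% of all genes. Under both DMSO and E6R, 20 members (51.3%) were at least 2-fold higher in replicate 1, beside 3.42% of all genes, and among genes with a mean of at least 20 CPM the figures were 10 of 25 members (40%) and 1.57%. Replicates of 1 group give no test of this, so these shares are descriptions.

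The 20 genes were FN1, SPARC, CD44, COL1A1, COL3A1, COL4A1, COL4A2, COL5A1, COL18A1, LAMA4, TAGLN, ACTA2, ANXA1, CAV1, YAP1, WWTR1, SNAI2, CCN1, CCN2 and TGFBI. They thus took in both coactivators and all but COL1A2, COL6A1 and COL6A2 of the collagens. The ratio of replicate 1 to replicate 2 was 5.91 for FN1, 6.52 for SPARC, 9.76 for COL3A1 and 16.2 for ACTA2 under DMSO. Under E6R these ratios were 15.3, 6.5, 17.5 and 19.2. Under TSA they were 1.02, 2.12, 2.64 and 2.60, and 8 of the 20 genes reached 2-fold there. Genes outside the pattern included COL6A1, with ratios of 1.16, 1.34 and 0.932 under DMSO, TSA and E6R, and S100A6, with 0.383, 1.64 and 0.663. VIM, with 1.40, 1.61 and 1.33, differed little.

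**Figure D3:**
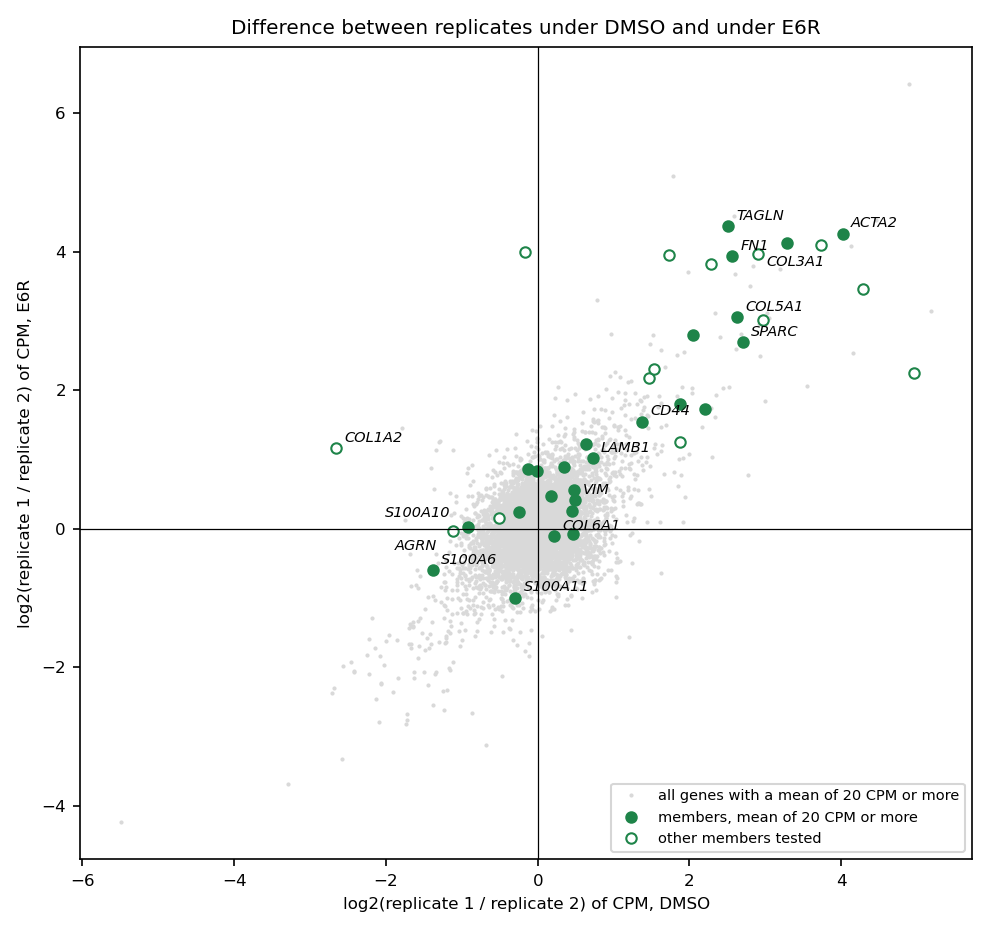
Log2 ratio of replicate 1 to replicate 2 in CPM under DMSO (x axis) and E6R (y axis) for all genes with a mean of at least 20 CPM (grey) and for members (green, open where the mean was lower). FN1, SPARC, COL3A1, COL5A1, TAGLN and ACTA2 lie in the upper right, away from the bulk of genes, while S100A6 and S100A11 lie at the lower left and VIM near the centre.

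Summed levels of other cell type markers also differed between replicate numbers, though the genes within a sum did not all go the same way. The 6 endothelial markers summed to 53.3 and 5.55 CPM under DMSO, 12.3 and 4.70 under TSA, and 71.4 and 1.88 under E6R, with none at 0 in all libraries. For 9 fibroblast markers the sums were 839 and 560.2 under DMSO, 761 and 613 under TSA, and 1137 and 912 under E6R, with POSTN at 0 throughout. The adrenergic sum ran the other way, at 3416 and 3813 CPM under DMSO, 3766 and 4321 under TSA, and 3382 and 5936 under E6R. Some genes within it did not, such as CHGA, at 1660 and 658 CPM under DMSO and 1301 and 1008 under E6R. Within the fibroblast sum, DCN was at 56.94 and 1.913 CPM under DMSO, 62.97 and 28.99 under TSA, and 165.0 and 1.919 under E6R. THY1, the largest part of that sum, was at 435.5 and 455.8 CPM under DMSO and 648.0 and 726.1 under E6R. The fibroblast sum thus does not show how far DCN differed between replicate numbers. DBH, the enzyme that makes noradrenaline, was detected in fewer cells of replicate 1 under DMSO and E6R, in 17.9% and 20% of cells without a SPARC UMI against 51.9% and 61.8% in replicate 2. The part of these differences in the division was not tested.

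Within a replicate number, E6R was above DMSO for 33 of the 39 members in number 1 and 24 in number 2. Of the 39, 22 were higher in both numbers and 4 lower in both, beside 35.4% and 30.9% of all genes. TSA was above DMSO in both numbers for 17 members and below in both for 10, beside 40.7% and 38.5% of all genes. For E6R against TSA the counts were 14 and 10, beside 37.6% and 44.3%. With 2 libraries a group, agreement in both numbers is a description.

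At the level of single cells, shares of cells with a UMI were compared after each cell was thinned to 1000 UMIs, which left out 503 to 1718 shallower cells a library. VIM was seen in 53.3% and 49.6% of DMSO cells, 74.7% and 65.2% of TSA cells, and 65.9% and 61.3% of E6R cells. Before thinning the shares were 58.8%, 54.6%, 85.6%, 81.5%, 79.2% and 72.4%. The order of the groups was that of the summed levels. FN1 was seen in 7.92% and 1.96% of DMSO cells, 19.8% and 19.7% of TSA cells, and 14.5% and 1.35% of E6R cells, or 12.3%, 2.71%, 41.2%, 36.4%, 28.5% and 4.16% before thinning. More cells with a transcript thus went with the higher sums, and a few cells were rich in FN1, up to 532 UMIs in 1 cell of TSA replicate 2. AGRN was seen in 0.253% and 0.357% of DMSO cells, 2.21% and 3.94% of TSA cells, and 0.318% and 0.359% of E6R cells, or 0.537%, 0.766%, 9.77%, 10.2%, 0.657% and 0.912% before thinning.

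Free RNA also gives UMIs, and no cell type that should lack these genes was at hand to measure it. Barcodes with under 300 genes held 0.323% to 0.640% of their UMIs in member genes, below the share in cells of the same library in all 6. In those barcodes the share was higher in replicate 1 of each treatment too, at 0.416% and 0.367% under DMSO, 0.533% and 0.323% under TSA, and 0.640% and 0.447% under E6R.

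Whether the matrix genes sat in the same cells was described with SPARC as the reference gene, in cells thinned to equal depth, with exact 95% binomial intervals that cover counting error only. In E6R replicate 1, COL3A1 was seen in 10.9% (8.57% to 13.7%) of 613 cells with a SPARC UMI and in 3.91% (3.01% to 4.98%) of the 1586 without. COL5A1 was seen in 12.6% (10% to 15.4%) against 4.41% (3.46% to 5.54%), and FN1 in 22.5% (19.3% to 26.0%) against 11.4% (9.89% to 13.1%). These intervals did not overlap. In DMSO replicate 1, COL4A1 was seen in 6.41% (3.84% to 9.94%) of 281 cells with SPARC and 0.773% (0.311% to 1.58%) of 906 without. S100A6, TIMP1 and DBH did not go with SPARC in that library, at 21.4% against 18.1%, 22.1% against 16.4% and 13.9% against 17.9%, with overlapping intervals. In the same library S100A10 did, at 19.9% (15.4% to 25.1%) against 10.9% (8.97% to 13.1%). VIM did too, at 67.3% (61.4% to 72.7%) against 49.0% (45.7% to 52.3%), so the genes that went with SPARC were not matrix genes alone. The endothelial gene PECAM1 also went with SPARC, at 6.05% (3.56% to 9.51%) against 1.10% (0.531% to 2.02%) in DMSO replicate 1. In E6R replicate 1 PECAM1 was at 5.22% (3.60% to 7.29%) against 1.26% (0.772% to 1.94%). DCN, a fibroblast gene, did not go with SPARC (13.9% and 13.9% in E6R replicate 1). In DMSO replicate 2 and E6R replicate 2 only 91 and 135 cells had a SPARC UMI, and the intervals of the matrix genes were wide. In DMSO replicate 2, COL3A1 and COL5A1 were seen in 0% of SPARC cells, against 0.566% and 0.880% of the others, and FN1 in 2.20% against 1.95%. In E6R replicate 2, COL3A1 was seen in 1.48% against 0.143%, COL5A1 in 3.70% against 0.860% and FN1 in 3.70% against 1.19%. All of these intervals overlapped. LAMB1 was seen in 5.49% (1.81% to 12.4%) against 10.8% (9.27% to 12.4%) of cells in the former and in 24.4% (17.5% to 32.6%) against 17.1% (15.5% to 18.8%) in the latter, and COL6A1 in 7.69% (3.15% to 15.2%) against 5.91% (4.80% to 7.18%) and in 5.93% (2.59% to 11.3%) against 7.36% (6.28% to 8.56%), with overlapping intervals.

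**Figure D4:**
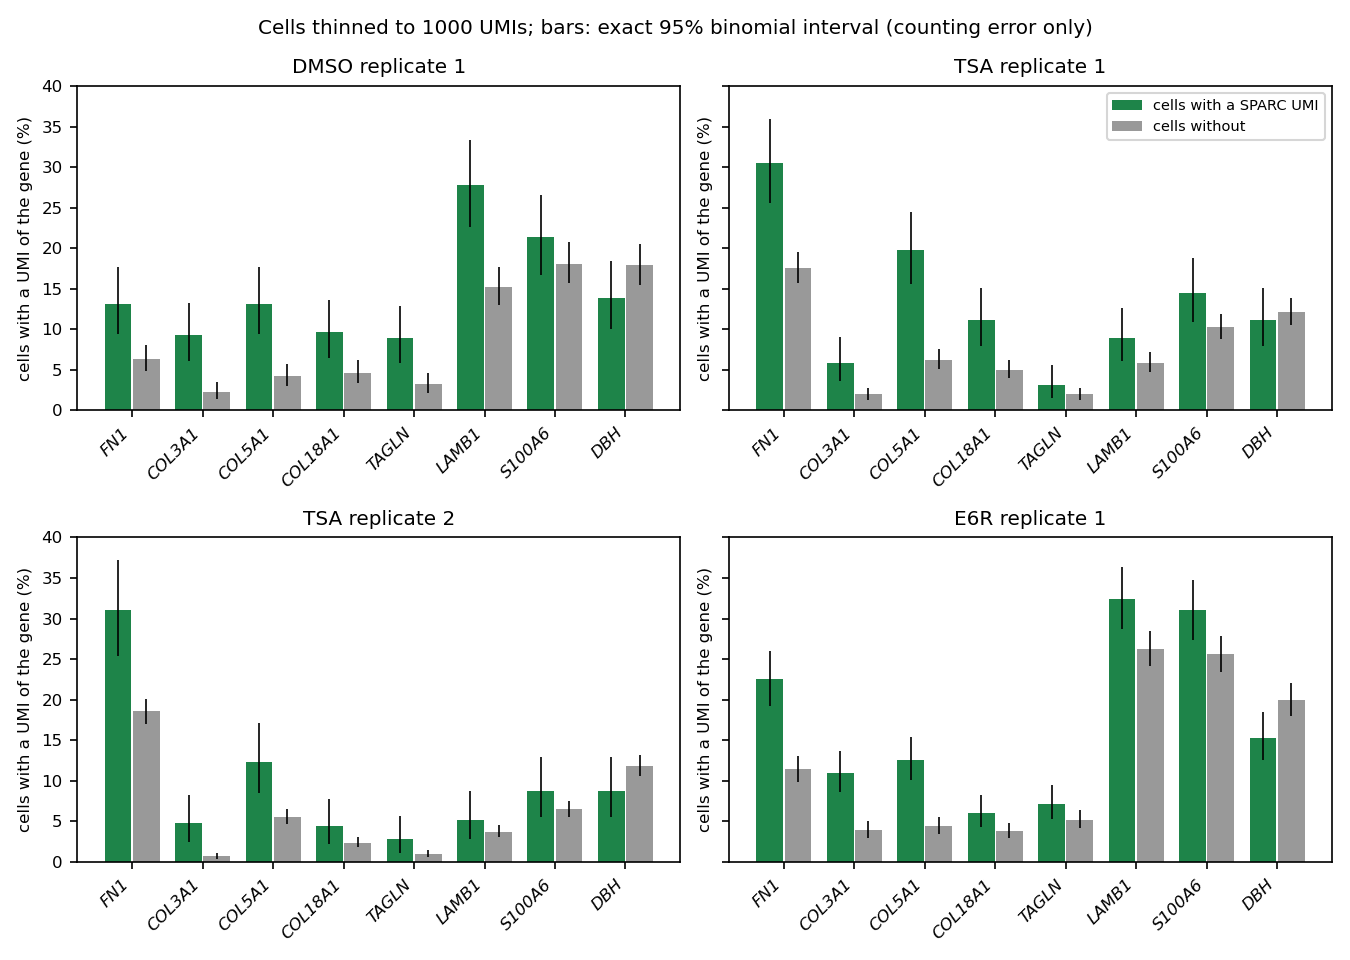
Share of cells with a UMI of each gene (y axis, percent) among cells with (green) and without (grey) a SPARC UMI in 4 libraries, thinned to 1000 UMIs, with exact 95% binomial intervals as error bars. FN1, COL3A1 and COL5A1 are higher in SPARC cells in all 4 panels, and DBH is not.

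Other genes of these pathways, from 11 further lists with 229 tested genes, gave 33 higher and 29 lower calls under TSA (27.1%), close to the 29.7% of all genes. The actin and contractile list had 12 higher and 3 lower of 27 (55.6%). Among the higher were CNN2 (calponin 2, log2 fold change 3.33, edgeR adjusted p = 0.0185) and ACTG1 (cytoplasmic gamma actin, 2.51, adjusted p = 0.000727). ACTG1 was at 1159 and 1003 CPM under DMSO, 6022 and 6263 under TSA, and 2002 and 1946 under E6R. Integrins and focal adhesion proteins ran the other way, with 2 higher and 8 lower of 22 (45.5%). VCL, vinculin, rose by 2.27 on the log2 scale (adjusted p = 0.00211), and PARVA, alpha-parvin (-2.25, adjusted p = 0.00698), and the integrin chain ITGB5 (-2.09, adjusted p = 0.0109) fell.

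The other S100, annexin and galectin genes had 1 higher and 4 lower calls of 17 under TSA (29.4%), near the 29.7% of all genes. S100A16 (-1.70, edgeR adjusted p = 0.00145), S100A13 (-1.47, adjusted p = 0.0173) and S100A4 (-0.97, adjusted p = 0.0281) fell, like S100A6 and S100A10. Matrix proteases and inhibitors had 0 higher and 3 lower of 22 (13.6%), led by ADAMTS9, a proteoglycan-cleaving protease. ADAMTS9 fell from 95.6 and 92.8 CPM under DMSO to 9.80 and 8.71 under TSA (-3.35, adjusted p = 0.00097) and stood at 139 and 73.7 under E6R. MMP24, a membrane-bound metalloproteinase (-2.52, adjusted p = 0.0172), and PLAUR, the urokinase receptor (-1.22, adjusted p = 0.0383), were the others. Among further mesenchymal regulators, 6 rose and 1 fell of 25 (28.0%). The one that fell was IFI16, a DNA sensor (-3.56, adjusted p = 0.00125), and CREG1 (1.36, adjusted p = 0.0142) and MEF2D (1.28, adjusted p = 0.033) were among those that rose.

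Hippo and TEAD genes had 2 calls in each direction of 22 (18.2%, beside 29.7% of all genes). VGLL4, a TEAD-binding repressor, fell (-1.88, edgeR adjusted p = 0.005), as did the kinase LATS1 (-0.99, adjusted p = 0.0257), and the kinase STK4 rose (0.94, adjusted p = 0.0122). TGF-beta signalling had 3 higher and 2 lower of 24 (20.8%). The ligand TGFB3 (-2.38, adjusted p = 0.00939) and the coreceptor ENG (-1.66, adjusted p = 0.0132) fell, and SKI, a repressor of SMAD proteins, rose (1.32, adjusted p = 0.0153). Cadherins and epithelial adhesion had 2 higher and 3 lower of 14 (35.7%). N-cadherin, CDH2, was lower (-0.97, adjusted p = 0.0446), as was KRT19, a keratin (-2.37, adjusted p = 0.0143), and CTNNA1, alpha-catenin, was higher (0.87, adjusted p = 0.0445).

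Collagen processing had 1 higher and 2 lower of 19 (15.8%, beside 29.7% of all genes). P4HB, protein disulfide isomerase and a subunit of prolyl 4-hydroxylase, rose (1.02, edgeR adjusted p = 0.00885), while P3H3 (-1.80, adjusted p = 0.00345) and P3H4 (-1.52, adjusted p = 0.0111), of the prolyl 3-hydroxylase family, fell. The other collagens had 3 higher and 0 lower of 12 (25.0%). The other basement membrane and matrix proteins had 1 and 1 of 25 (8.0%), where the elastic fibre protein EMILIN1 fell (-1.73, adjusted p = 0.0237). For E6R against DMSO no gene of these lists was called, as for all genes, and 22 were higher and 8 lower at an unadjusted p under 0.05 (13.1% of 229, beside 17.4% of all genes). For E6R against TSA 44 were higher and 35 lower (34.5%, beside 38.2% of all genes). Integrins and focal adhesion genes had 11 higher and 3 lower of 22 (63.6%), and actin genes 6 higher and 8 lower of 27 (51.9%).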

How the data were processed

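Gene by cell UMI counts of 6 Seq-Well S3 libraries, 2 per treatment, were used as the authors deposited them. Per the submitters' processing notes, reads were handled with STARsolo 2.7.9a on build GRCh38. The sources used here do not give the annotation, strand rule or choice of barcodes, and 15009 to 15123 barcodes per library were deposited.

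Counts were summed per library over cells with at least 500 genes and at most 20% of UMIs from 13 mitochondrial genes. Doublets were not called; dropping the top 5% of cells by UMIs was an alternative. Sums were tested with edgeR 4.0.16 in R 4.3.3 (TMM, filterByExpr, quasi-likelihood test, all 6 libraries in 1 fit by treatment, Benjamini-Hochberg over 16763 genes, threshold 0.05). Fold changes use that fit, and CPM uses TMM-scaled library sizes. The common biological coefficient of variation was 0.288, and the script was tested on simulated data. DESeq2 1.42.0 was an alternative.

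The members, related lists and tests were chosen with earlier results of these data known, as was SPARC as reference gene. Full statistics go to members called with a mean of at least 10 CPM and groups that do not overlap (up to 12 for TSA against DMSO and 6 for E6R against TSA), to the 6 members with the smallest p for E6R against DMSO, and to 9 members named in any case (VIM, FN1, YAP1, COL1A1, CD44, ZEB1, COL4A1, COL4A2, ITGB1). Other members called, or near a call, are given with shorter statistics. From each related list, up to 3 genes with the largest change under TSA and a mean of at least 10 CPM are named. One gene that this rule picks is not reported here. Gene coordinates are from GENCODE 29 (GRCh38), matched by identifier.

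Alternatives were other scalings (RLE, total counts, no mitochondrial or ribosomal protein genes), no low-count filter, a replicate block, each library left out, 300 or 1000 genes per cell, all barcodes, and cells or libraries thinned to equal depth. Protein sequences and the promoters of 10 members were not used here.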

Additional observations from a re-analysis of the deposited data

How the results depend on the processing

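Depth and 2 libraries a group limit these results. For TSA against DMSO, the 11 members called became 19 with no low-count filter (18.7% of all genes) and 2 to 19 over the fits that left out 1 library. For E6R against DMSO, the 0 called became 9 with no low-count filter (8 higher, 1 lower; 3.47% of all genes) and stayed 0 in the other alternatives. For E6R against TSA, the 12 became 22 with no low-count filter (24% of all genes) and 4 to 21 over the fits that left out 1 library. The cause was not tested. Deviations from the treatment means of same-numbered libraries correlated across 7515 genes with r = 0.24 (DMSO and TSA), 0.56 (DMSO and E6R) and 0.17 (TSA and E6R), but the labels give only a number. With a replicate block the counts were 22 (12 higher, 10 lower), 0 and 20 (11 higher, 9 lower), beside 36.1%, 0.113% and 45.1% of all genes. The block called FN1 (3.34, edgeR adjusted p = 0.00395), COL1A1 (1.87, adjusted p = 0.0166), CD44 (-1.43, adjusted p = 0.00253) and ITGB1 (0.63, adjusted p = 0.0362) under TSA, and FN1 (-2.98, adjusted p = 0.00604), COL1A1 (-1.44, adjusted p = 0.0349) and VIM (-0.64, adjusted p = 0.0179) for E6R against TSA, and COL4A1 for TSA turned to 0.086. Counted as pairs of a gene and an alternative, values of members named with a test changed sign 4, 19 and 13 times in the 3 comparisons, always where there was no call. COL4A2 made up 9 of the 19. For E6R against DMSO, ZEB1 was -0.055 with total counts only and -0.038 with library sums thinned, AGRN was 0.21 with cells thinned, and COL4A2 was 0.058 with DESeq2, 0.15 with no low-count filter, 0.13 at 300 genes per cell, 0.15 with all barcodes and 0.14 with cells thinned. For E6R against TSA, YAP1 was 0.036 with total counts only, 0.12 with no low-count filter and 0.068 with library sums thinned, and ITGB1 was -0.041 without the 5% of cells with most UMIs and -0.064 with cells thinned. Over the fits that left out 1 library, log2 fold changes under TSA ran from -1.21 to 1.19 for COL4A1 and -1.66 to 1.60 for COL4A2. Under E6R they ran from -2.25 to 2.61 for FN1, -2.10 to 2.04 for YAP1, -1.27 to 2.10 for COL1A1, -0.093 to 0.47 for ZEB1, -1.92 to 2.59 for COL4A1 and -2.08 to 2.26 for COL4A2. For E6R against TSA they ran from -3.05 to 0.82 for YAP1, -2.74 to 0.009 for COL1A1, -1.56 to 2.21 for COL4A1, -1.55 to 1.68 for COL4A2 and -0.35 to 0.49 for ITGB1. Some of these ends were calls, in fits with 1 E6R library. They were -3.05 for YAP1 and -2.74 for COL1A1 without E6R replicate 1, and 2.21 for COL4A1 without E6R replicate 2.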
